A study of Mus musculus with 16 samples.

Results

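The combination of SB525334 and KN046 was compared with the control group across all genes of MC38 liver metastases, using 8 of the 16 libraries of the series: combination mice 1 to 4 and control mice 1 to 4, chosen by their labels. MC38 is a colon adenocarcinoma cell line of C57BL/6 origin. In all groups it had been injected into the inferior hemispleen of male wild-type C57BL/6 mice, 6 weeks old, from where the cells seed the liver, and total RNA of the tumor tissue was sequenced. SB525334, an inhibitor of the kinase of TGF-β receptor I, was given daily by gavage at 20 mg/kg, KN046, an antibody against PD-L1 and CTLA-4, into the peritoneum at 10 mg/kg, the combination group received both, and the control group received PBS. The labels name the samples as liver metastases and give no tumor fraction, so each value is of a mixture of tumor cells, stroma, immune cells and surrounding tissue. In bulk RNA of this kind, fewer cells of a type and less RNA per cell cannot be told apart.

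TGF-β ligands bind a complex of type I and type II receptors that phosphorylates SMAD proteins, and the SMAD complex then switches on genes of matrix production as well as its own inhibitors, such as Smad7. PD-L1 on tumor and myeloid cells restrains T cells through PD-1, and CTLA-4 competes with CD28 for the ligands that license T cell activation. The liver around a metastasis brings its own programs, among which the secreted plasma proteins, clotting factors and drug-metabolizing enzymes of hepatocytes, controlled by factors such as HNF4A, are the most abundant.

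The promoters of 4 genes are shown because they stand for the 2 gene groups with the largest differences, which are hepatocyte genes that were lower and genes that were nearly unmeasured outside the combination group. The first 2 are the most abundant called genes of the liver lists that have an entry in the RefSeq promoter table, Alb for serum albumin (chr5:90460620-90460919, + strand) and Hpx for hemopexin, the plasma carrier of heme (chr7:105600067-105600366, - strand). The other 2 are the rises with the largest log2 fold change that have an entry, Coch for the matrix protein cochlin (chr12:51593091-51593390, + strand) and Tlx1 for a homeobox factor needed for the spleen to form (chr19:45150465-45150764, + strand). The sequences are from RefSeq on GRCm38.p6, another build than the GRCm39 of the counts, and run 5′ to 3′ from 250 bases before to 50 bases after the gene start, with capitals where CCAAT, a common promoter word, occurs on either strand.
Alb: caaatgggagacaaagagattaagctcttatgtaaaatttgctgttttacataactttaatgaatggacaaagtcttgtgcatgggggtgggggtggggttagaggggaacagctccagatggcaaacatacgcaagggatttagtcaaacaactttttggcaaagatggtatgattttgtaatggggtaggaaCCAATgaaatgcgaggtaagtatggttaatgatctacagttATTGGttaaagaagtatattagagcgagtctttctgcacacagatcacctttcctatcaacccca
Hpx: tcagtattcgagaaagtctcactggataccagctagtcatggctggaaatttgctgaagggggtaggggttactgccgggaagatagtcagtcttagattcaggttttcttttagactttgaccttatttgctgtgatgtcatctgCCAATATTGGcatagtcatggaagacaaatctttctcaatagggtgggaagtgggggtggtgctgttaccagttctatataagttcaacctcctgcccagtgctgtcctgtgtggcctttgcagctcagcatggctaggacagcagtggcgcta
Coch: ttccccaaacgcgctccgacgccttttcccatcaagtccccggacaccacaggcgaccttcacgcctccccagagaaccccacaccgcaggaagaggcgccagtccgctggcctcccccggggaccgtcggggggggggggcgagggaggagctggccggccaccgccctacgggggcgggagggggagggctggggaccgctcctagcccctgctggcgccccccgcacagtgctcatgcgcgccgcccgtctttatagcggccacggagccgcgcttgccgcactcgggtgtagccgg
Tlx1: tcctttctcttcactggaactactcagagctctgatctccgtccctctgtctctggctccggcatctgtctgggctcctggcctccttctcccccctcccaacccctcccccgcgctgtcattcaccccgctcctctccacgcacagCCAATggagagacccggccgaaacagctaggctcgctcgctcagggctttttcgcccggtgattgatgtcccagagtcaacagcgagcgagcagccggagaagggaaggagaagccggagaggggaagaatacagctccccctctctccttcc
In these 300 bases the Alb promoter holds 2 CCAAT matches, Hpx holds 2 that lie side by side, Tlx1 holds 1, and Coch holds none. Of all 32851 promoters in the table, 37.4% hold CCAAT. Of the 216 liver-list genes called lower, 169 have an entry, and 78 of their 193 promoters (40.4%) hold CCAAT. Of the 192 genes called higher, 148 have an entry, and 59 of their 183 promoters (32.2%) hold CCAAT. A match is a word in the sequence and not a measured binding site.

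The total count was 20042850 to 21802474 per mouse in the control group and 18368994 to 20921926 with the combination, and levels are given as counts per 1000000 (CPM) on the TMM scale of edgeR. The share of counts on the genes of the liver lists was 3.965 to 4.46% in the 4 control mice and 0.403 to 0.462% in the 4 combination mice, against 0.554 to 0.891% with SB525334 alone and 2.39 to 4.705% with KN046 alone. Control mice 1 and 2 were much closer to each other than to mice 3 and 4, which were also close. The median chi-square per gene between their counts was 1.26 and 0.957, and 8.75 to 9.47 for the other control pairs, against 2.82 to 12.5 within the combination group. Of the genes compared, 24.9% and 18.15% lay past the 95% point of counting noise within the close pairs, which repeat libraries of 1 tumor could also give, so whether the close pairs come from separate mice cannot be told from these counts. The 4 control samples were kept as the labels number them, control mouse 1 to 4 being names of those samples, and n = 4 would be n = 2 if each pair were 1 mouse. For genes named by rule, calls that were lost with each pair merged into 1 sample are given where the gene is described. For genes named after their values had been seen, such losses are given only in part, so silence there does not mean that a call was kept. The labels do not say from which culture, cage or tumor the samples came, so the p-values measure the spread between these samples.

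In the combination group 192 genes were higher and 1360 were lower than in the control group, of 13968 tested, at an adjusted p under 0.05 (edgeR quasi-likelihood test, Benjamini-Hochberg). That is 1.37% of genes higher and 9.74% lower, which is the background for each count below, and the median log2 fold change over all genes tested was 0.01. The falls were large and the rises small. Of the lower genes, 577 fell by over 4 on the log2 scale and 327 by 2 to 4, with genes that had no counts set at their bound, whereas 153 of the 192 higher genes rose by under 1. Every combination mouse lay below every control mouse for 1304 of the lower genes, and above for 153 of the higher genes. Over all 13968 genes tested, called or not, the groups did not overlap for 1684 genes that were below and 743 that were above. Of the lower genes, 216 belong to the 14 lists of hepatocyte and other liver cell genes, where 249 were tested and 0 were called higher (0 also at an unadjusted p under 0.05 and by DESeq2), and 1144 belong to none of them. With the close control samples merged, 35 genes were called higher and 1157 lower, of which 33 and 1138 were among these calls. Leaving out 1 mouse gave 1210 to 1516 lower genes and 79 to 668 higher genes, with 83 without control mouse 1, 79 without control mouse 2, 668 without combination mouse 1, 86 without combination mouse 2 and 118 without combination mouse 3. The number of rises therefore moved by over 1.5 times with single libraries, and the number of falls did not.

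**Figure D1:**
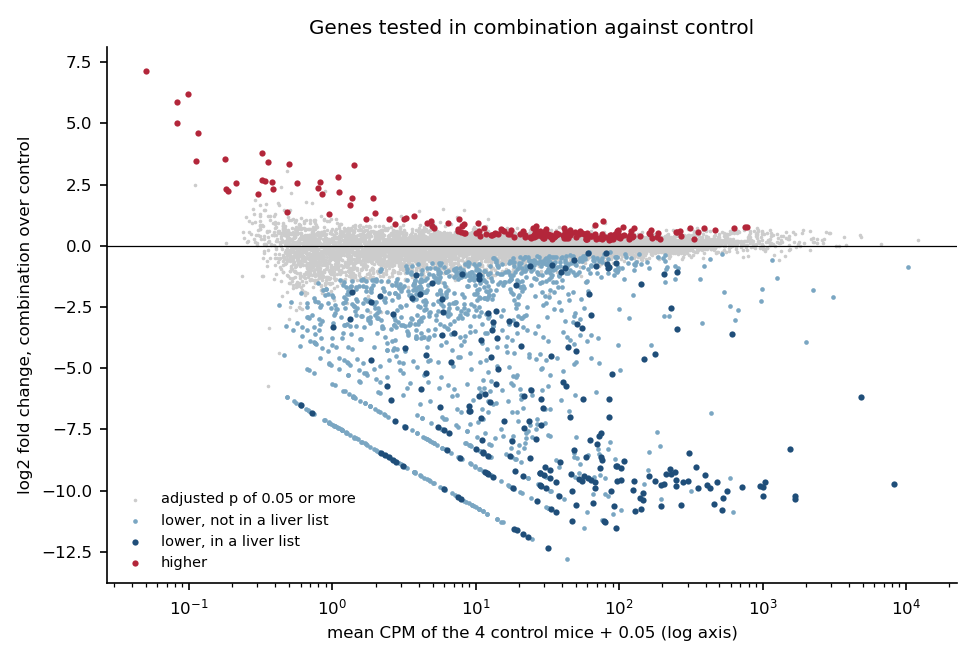
Each point is 1 of the 13968 genes tested, with its mean CPM in the 4 control mice on a log axis and its log2 fold change in the combination over the control group. Dark points are the 216 liver-list genes called lower, light blue points the other genes called lower and red points the 192 genes called higher, and the straight lines of points at the lower left are genes with few or no counts in the combination mice.

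Genes of secreted hepatocyte proteins fell nearly to 0. The median member of the plasma protein list was at 0.104% of its control level, with genes of 0 to 3 counts in a group set at their bound or ratio. All 27 plasma protein genes tested were lower, and their summed level was 21510 to 27960 CPM in the control mice and 76.9 to 98.5 CPM in the combination mice. Alb (ENSMUSG00000029368, chromosome 5 of GRCm39, 90608647 to 90624696 on the + strand) had 7843, 8102, 8383 and 8414 CPM in control mice 1 to 4 and 9.35, 10.1, 11.6 and 7.07 CPM in combination mice 1 to 4 (log2 fold change -9.75 ± 0.53 SE, adjusted p = 4.72e-10). The groups were far apart, and the values within each group lay close together. Gc, the vitamin D binding protein, fell from 1004 ± 70.6 to 0.8294 ± 0.401 CPM (mean ± SD, n = 4 labelled samples each, as in all such pairs; log2 -10.23, adjusted p = 4.47e-11), and Ambp, the precursor of a microglobulin and of bikunin, fell from 459.5 ± 59.5 to 0.299 ± 0.101 CPM (log2 -10.56, adjusted p = 7.13e-11). Of 20 coagulation genes 19 were lower, with a median log2 fold change of -9.30. F2, prothrombin, fell from 249.6 ± 50.8 to 0.327 ± 0.0895 CPM (log2 -9.56, adjusted p = 2.59e-10) and F12, the factor that starts the contact pathway, from 73.2 ± 14.8 to 0.131 ± 0.0336 CPM (log2 -9.07, adjusted p = 2.59e-10).

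Complement genes fell in part. Of 21 genes 16 were lower, with a median log2 fold change of -4.49. Cfi, the protease that cleaves C3b, fell from 124 ± 24.6 to 0.123 ± 0.123 CPM (log2 -9.98, adjusted p = 7.33e-10), and C9, which forms the pore of the attack complex, from 62.2 ± 14.9 to 0.245 ± 0.0987 CPM (log2 -7.94, adjusted p = 1.71e-09). The subunits of C1q, which macrophages make, did not pass the test: C1qa had 206, 202, 246 and 242 CPM in control mice 1 to 4 and 207, 245, 273 and 271 CPM in combination mice 1 to 4 (log2 0.15, adjusted p = 0.68), and the groups overlapped. The other 2 subunits, C1qb (log2 0.26, adjusted p = 0.386) and C1qc (log2 0.17, adjusted p = 0.657), gave like values, and these 3 were named after their values had been seen. Of 16 acute phase genes 13 were lower (median -8.65). Serpina3n, an inhibitor of serine proteases, fell from 177 ± 49.1 to 8.24 ± 1.45 CPM (log2 -4.42, adjusted p = 1.03e-09). Crp, the C-reactive protein, was at 33.2, 29.4, 37.5 and 33.0 CPM in the control mice and at 1 count in the 4 combination mice together (adjusted p = 2.50e-09).

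The metabolic genes of hepatocytes fell with them. Lower were 21 of 22 genes of the urea cycle and amino acid breakdown (median log2 fold change -7.41), 16 of 17 of bile acid synthesis and transport (-7.46), 31 of 32 of the cytochrome P450 and conjugation list (-9.18) and all 14 of gluconeogenesis and glycogen (-8.78). In these medians genes with 0 to 3 counts in a group are set at their bound or ratio. As fitted the medians were -7.27, -7.46, -9.24 and -8.58. Gnmt, which methylates glycine, fell from 45.5 ± 3.20 to 0.352 ± 0.146 CPM (log2 -7.00, adjusted p = 7.51e-10). Sult1a1, a sulfotransferase, fell from 40.6 ± 3.17 to 0.846 ± 0.154 CPM (log2 -5.58, adjusted p = 2.37e-10) and Fbp1, the gluconeogenic bisphosphatase, from 63.4 ± 10.8 to 0.0726 ± 0.112 CPM (log2 -9.57, adjusted p = 5.59e-10). The SDs were a small part of the distance between the groups in each case. Abcc2, an export pump for bile pigments and conjugates, was at 49.7, 54.8, 46.0 and 49.2 CPM in the control mice and at 0.0513, 0, 0 and 0.0471 CPM with the combination (a control to combination ratio of 1928 with a 95% counting interval of 533 to 15928, adjusted p = 3.42e-09). Igfbp1, a binding protein of insulin-like growth factors that hepatocytes secrete in fasting, had 71.5, 70.6, 82.7 and 76.2 CPM in control mice 1 to 4 and 0.154, 0.386, 0.109 and 0.0471 CPM in combination mice 1 to 4 (log2 -8.75, adjusted p = 2.61e-11), against means of 10.1 CPM with SB525334 alone and 161 CPM with KN046 alone.

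Of the 12 genes with the largest fitted falls that met the naming rule, 9 had no counts in any of the 4 combination mice. They were Elovl2, which lengthens polyunsaturated fatty acids (at least 1115-fold lower, against a floor of 3 counts over the group), Ugt2b5, a glucuronosyltransferase (at least 821-fold), Aadac, a microsomal esterase (at least 641-fold), Cyp2c54, a cytochrome P450 (at least 592-fold), Mbl1, a mannose-binding lectin (at least 547-fold), Aqp8, a water channel (at least 545-fold), Otc, an enzyme of the urea cycle (at least 495-fold), F13b, the carrier subunit of clotting factor XIII (at least 472-fold), and Cldn3, an epithelial claudin (at least 393-fold). Their adjusted p lay between 1.19e-08 and 4.54e-06. The other 3 kept 1 or 2 counts in the group, namely Hnf4a with a control to combination ratio of 3083 (95% counting interval 853 to 25461), C4bp, an inhibitor of complement, with 3644 (1008 to 30093) and Kng2, a kininogen, with 4343 (779 to 171559). The order among genes with 0 to 2 counts depends on the prior count of the fit, and Fabp1, with 2 counts, had a ratio of 3099. Intervals and floors cover counting error only.

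Many genes of hepatocyte identity factors and of the other resident cells of the liver fell as well. Of 20 hepatocyte transcription factor genes 17 were lower. Their median log2 fold change was -5.91 with genes of 0 to 3 counts in a group set at their bound or ratio, and -6.645 as fitted. Hnf4a, the nuclear receptor that holds the hepatocyte program, had 77.8, 82.7, 80.7 and 78.7 CPM in control mice 1 to 4 and 0, 0, 0.109 and 0 CPM in combination mice 1 to 4, and Creb3l3, a membrane-bound factor of lipid metabolism, fell from 21.5 ± 1.88 to 0.295 ± 0.163 CPM (log2 -6.15, adjusted p = 4.35e-09). Alb, Hnf4a and the other defining genes of hepatocytes were thus at or near 0 in all 4 combination mice, whose label names liver metastases. Lower were also 8 of 9 genes of Kupffer cells, the macrophages of the liver sinusoids (median -3.76), 9 of 12 of sinusoidal endothelium (-3.10), 9 of 11 of stellate cells, the vitamin A storing pericytes (-4.20), and 5 of 8 of bile duct cells (-2.08), of which 3 were called without control mouse 1, combination mouse 2 or combination mouse 3. Among the lower bile duct genes were Pkhd1, which encodes fibrocystin, and, named after their values had been seen, Epcam (log2 -2.77, adjusted p = 0.0085), Tspan8 (log2 -1.87, adjusted p = 0.0221) and Krt7 (log2 -2.29, adjusted p = 0.0222). With the control pairs merged 4 of the bile duct genes were called lower. The summed level of the stellate list did not fall (845 to 921 CPM in the control and 905 to 926 CPM in the combination mice). That of sinusoidal endothelium overlapped (154 to 336 and 114 to 164 CPM). The sums of the Kupffer cell list (182 to 369 and 5.73 to 19.75 CPM) and bile duct list (253 to 266 and 197 to 234 CPM) fell without overlap. Clec4f, a Kupffer cell lectin, had 94.7, 100.2, 35.8 and 38.3 CPM in control mice 1 to 4 and 0.103, 0.0552, 0 and 0.0943 CPM in combination mice 1 to 4 (adjusted p = 1.17e-06), and control mice 1 and 2 lay well above mice 3 and 4. Lyve1, a hyaluronan receptor of sinusoidal endothelium, fell from 12.6 ± 5.38 to 0.146 ± 0.0953 CPM (log2 -6.40, adjusted p = 3.94e-08), and Reln, a secreted protein of stellate cells, from 11.5 ± 3.69 to 0.156 ± 0.243 CPM (log2 -6.06, adjusted p = 4.18e-07).

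Among the 12 named genes that rose most, Nr5a1, Tlx1 and Nkx2-3 are transcription factors known from the mesenchyme and vessels of the spleen. Nr5a1 (ENSMUSG00000026751, chromosome 2 of GRCm39, 38581468 to 38604642 on the - strand), a nuclear receptor of steroid-making tissues and of splenic endothelium, had 0.131, 0, 0 and 0 CPM in control mice 1 to 4 and 2.62, 2.54, 1.53 and 3.02 CPM in combination mice 1 to 4. Its means were 0.0108 CPM with SB525334 alone and 0.014 CPM with KN046 alone. The control group held 3 counts in all, which gives a ratio of 67.7 (95% counting interval 22.8 to 331, adjusted p = 5.78e-06). Tlx1 had 0.131, 0, 0 and 0 CPM in control mice 1 to 4 and 1.28, 1.32, 1.201 and 1.56 CPM in combination mice 1 to 4, a ratio of 37.2 (12.4 to 183, adjusted p = 0.000131). In both genes all 4 combination mice lay above all control mice, which the rule for naming the largest rises required, so it is not a separate result. Being near 0 in the other groups, both genes entered the test only through the combination mice. The values of the combination mice differed little among themselves. Nkx2-3, a homeobox factor of splenic and gut mesenchyme, had 0.262, 0, 0 and 0 CPM in control mice 1 to 4 and 1.54, 1.60, 1.80 and 2.50 CPM in combination mice 1 to 4 (log2 fold change 4.60 ± 0.80 SE, adjusted p = 0.00177; adjusted p = 0.14 with DESeq2), all control counts being in mouse 1. Nkx2-5, a homeobox factor of heart and spleen primordium that was named after its value had been seen, had no counts in the control mice and 0.565, 0.607, 0.71 and 1.46 CPM in the combination mice, at least 23.6-fold higher (adjusted p = 0.00067). Coch had 0, 0.0947, 0.101 and 0 CPM in control mice 1 to 4 and 8.32, 0.883, 0.928 and 5.99 CPM in combination mice 1 to 4 (log2 fold change 6.22 ± 0.96 SE, adjusted p = 0.000106), with combination mice 1 and 4 well above mice 2 and 3.

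Of the 7 genes tested on the splenic mesenchyme list, 3 were higher (Coch, Tlx1 and Nkx2-5), and the other 4 gave log2 fold changes of 0.17 (Nr2f1), -0.89 (Tcf21), -0.91 (Wt1) and -2.99 (Barx1), none past the threshold. The list's median log2 fold change was 0.17, and it depended on which genes were tested, being 2.60 without a filter on low counts, 2.58 in the 8 libraries alone, 2.61 with the control pairs merged and -0.34 with at least 1 CPM in 4 libraries. Nr5a1 and Nkx2-3 are not on it. With only genes of at least 1 CPM in 4 libraries tested, 1 of the list was called. The list had been written with earlier results of these data in view, so its count is not independent evidence. These genes rose in the same 4 libraries in which the liver lists fell, and the part of spleen and liver tissue in the samples was not tested.

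**Figure D2:**
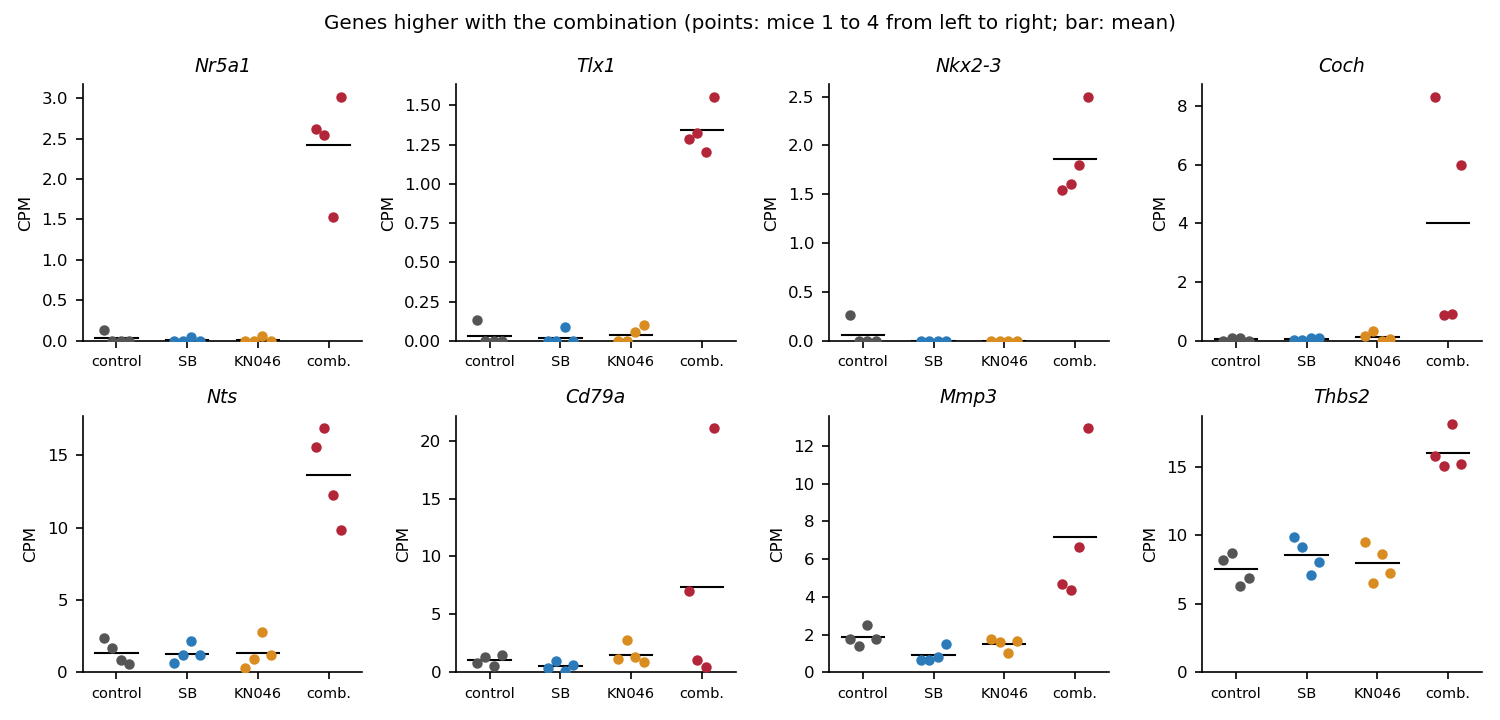
CPM of 8 genes in each of the 16 mice, by group (SB is SB525334 alone, comb. the combination), with mice 1 to 4 from left to right and a bar at the mean. Nr5a1, Tlx1, Nkx2-3 and Coch lie near 0 outside the combination group, Nts and Thbs2 separate the combination mice from all others, and Cd79a is carried by combination mice 4 and 1.

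Of the other large rises, Nts (ENSMUSG00000019890, chromosome 10 of GRCm39, 102317614 to 102326396 on the - strand), the neuropeptide neurotensin, had 2.36, 1.66, 0.862 and 0.575 CPM in control mice 1 to 4 and 15.6, 16.9, 12.3 and 9.85 CPM in combination mice 1 to 4 (log2 fold change 3.30 ± 0.51 SE, adjusted p = 9.80e-05). No values overlapped between the groups, which the naming rule required, and the means with SB525334 and KN046 alone were 1.30 and 1.31 CPM. Tnn, the matrix protein tenascin N, rose from 0.33 ± 0.14 to 2.06 ± 0.658 CPM (log2 2.60, adjusted p = 0.000126), Cdh15, the muscle cadherin, from 1.06 ± 0.493 to 4.84 ± 1.78 CPM (log2 2.18, adjusted p = 0.000195) and F2rl3, the thrombin receptor PAR4, from 0.794 ± 0.327 to 3.45 ± 0.331 CPM (log2 2.11, adjusted p = 0.00206). These 3 genes were at a few CPM even where they were high. Efhd1, a mitochondrial calcium-binding protein (log2 2.34, adjusted p = 0.00286), and Olfml2a, an olfactomedin-like matrix protein (log2 2.35, adjusted p = 0.00291), rose to 1.73 ± 0.332 and 3.87 ± 0.368 CPM. Pla2g2d, a secreted phospholipase of lymphoid tissue, had 2.41, 0.717, 0.928 and 8.30 CPM in the combination mice (log2 2.57, adjusted p = 0.0221), and Lrrn1, a leucine-rich repeat protein, had 1.03, 0.552, 1.31 and 1.18 CPM (log2 2.57, adjusted p = 0.0381). The call of Pla2g2d was lost without control mouse 2 (adjusted p = 0.0741), control mouse 3 (0.0647) or combination mouse 4 (0.189), and that of Lrrn1 with DESeq2 (0.0627) and without control mouse 1, 3 or 4 or combination mouse 3 or 4 (adjusted p = 0.0764 to 0.098). Both calls were also lost with the control pairs merged (0.142 and 0.152).

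No gene tested on the T cell list passed the test, and the B cell genes Cd79a and Cd79b were high in combination mice 1 and 4. The T cell list holds Cd4 but not the CD8 genes, so it gives no result for those. On the T cell list 0 of 14 were called by edgeR (0 higher and 0 lower at an unadjusted p under 0.05; DESeq2 0 and 0), 12 lay above 0, and the median log2 fold change was 0.25, against -0.016 without combination mouse 4. Lck, the kinase of the T cell receptor, had 7.09, 9.09, 6.80 and 7.21 CPM in control mice 1 to 4 and 9.50, 7.50, 7.75 and 14.8 CPM in combination mice 1 to 4 (log2 fold change 0.39 ± 0.27 SE, adjusted p = 0.429), and combination mice 2 and 3 lay within the control values. Of 14 genes of regulatory T cells and checkpoints and 10 of NK cells, 0 were called by edgeR or DESeq2 and 0 had an unadjusted p under 0.05 (medians -0.07 and 0.08). Entpd1, the ectonucleotidase CD39, gave log2 fold change 0.01 ± 0.25 SE, adjusted p = 0.982, and Klra4, an NK cell receptor, gave log2 fold change 0.22 ± 0.19 SE, adjusted p = 0.55. The list of B and plasma cells had a median of 2.33, against 1.17 without combination mouse 4, and 2 of 9 were called. Cd79a, a signaling chain of the B cell receptor, had 0.787, 1.33, 0.558 and 1.52 CPM in control mice 1 to 4 and 6.98, 1.05, 0.437 and 21.1 CPM in combination mice 1 to 4 (log2 2.82, adjusted p = 0.0373), and its partner Cd79b had 3.85, 0.497, 1.36 and 12.9 CPM in the combination mice (log2 2.59, adjusted p = 0.0297). Both were high in combination mouse 4 and to a lesser degree in mouse 1, whereas mice 2 and 3 lay close to the control mice. Their list had a summed level of 7.26 to 18.03 CPM in the control mice and 5.84 to 132 CPM in the combination mice. In the 8 libraries alone 0 genes of the list were called (adjusted p = 0.106 for Cd79a and 0.0777 for Cd79b). Without combination mouse 4 the adjusted p was 0.283 for Cd79a and 0.244 for Cd79b, and 0 genes of the list were called; that was also so without any 1 of the control mice (adjusted p up to 0.112), with the replicate number as a block (0.0742 and 0.075) and with the control pairs merged.

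Myeloid genes fell in part. Of 15 neutrophil genes 4 were lower (median log2 fold change -1.38), namely Lcn2, Csf3r and, named after their values had been seen, Mpo, myeloperoxidase (log2 -2.72, adjusted p = 0.0162), and Elane, neutrophil elastase (log2 -2.79, adjusted p = 0.0249). Lcn2, a siderophore-binding protein of neutrophils and inflamed epithelium, had 102, 102, 189 and 201 CPM in control mice 1 to 4 and 0.873, 1.66, 0.328 and 20.6 CPM in combination mice 1 to 4 (log2 fold change -4.62 ± 0.82 SE, adjusted p = 0.000465), and Csf3r, the receptor for the growth factor G-CSF, fell from 17.3 ± 6.32 to 6.61 ± 3.03 CPM (log2 -1.38, adjusted p = 0.00307). Combination mouse 4 lay far above the other 3 combination mice in Lcn2. The same held for S100a9, a calcium-binding protein of neutrophils, with 50.2, 45.7, 56.8 and 62.5 CPM in control mice 1 to 4 and 1.95, 6.40, 0.491 and 81.3 CPM in combination mice 1 to 4 (log2 -1.25, adjusted p = 0.491), and for Ngp, a granule protein, with 58.2, 63.0, 52.8 and 55.9 CPM in control mice 1 to 4 and 2.31, 2.48, 0.0546 and 78.2 CPM in combination mice 1 to 4 (log2 -1.46, adjusted p = 0.383), both named after their values had been seen. Without combination mouse 4, 13 of the 15 genes were called lower and the median was -4.10, and 2 were called without combination mouse 2 or with the control pairs merged. Combination mouse 4 had the highest summed level of the erythroid list in its group, and Slc4a1, the anion exchanger of red cells, had 3.29, 1.38, 0 and 8.86 CPM in combination mice 1 to 4 (log2 3.42, adjusted p = 0.0325; 0.177 without mouse 4, 0.0587 to 0.0849 without any 1 control mouse, 0.0832 with DESeq2, 0.0939 with the replicate block, 0.185 with the control pairs merged). The part of blood or lymphoid tissue in this library was not tested.

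Among 16 macrophage genes, Mertk, a receptor that clears dead cells, was the 1 called (log2 fold change -0.78 ± 0.24 SE, adjusted p = 0.0479), lower with the combination. Its call was lost with DESeq2's size factors (adjusted p = 0.0512) or a scaling without the liver lists (0.0524), without control mouse 1 or 2 (adjusted p = 0.187 and 0.174) and without combination mouse 2, 3 or 4 (0.104 to 0.168), and with the control pairs merged (0.126). The list's median was 0.16. Plac8, a monocyte gene and the called member of 7 (list median -0.97), had 27.4, 27.6, 22.5 and 24.1 CPM in the control mice and 7.96, 5.57, 4.26 and 23.4 CPM in the combination mice (log2 -1.30, adjusted p = 0.0326), with mouse 4 inside the control range, and its call was lost without control mouse 1, 2 or 4 or combination mouse 1, 2 or 3 (up to 0.122) and with the control pairs merged (0.139). Without combination mouse 4, 4 of the monocyte genes were called lower. On the dendritic cell list 0 of 13 were called by edgeR (1 higher and 2 lower at an unadjusted p under 0.05; DESeq2 0 and 0), with a median of -0.43. On that of alternative macrophage activation 0 of 8 were called by edgeR (0 higher and 2 lower at an unadjusted p under 0.05; DESeq2 0 and 0), with a median of -0.22, and Arg1, arginase 1 of activated macrophages and hepatocytes, gave log2 fold change -0.06 ± 0.36 SE, adjusted p = 0.937. Of 4 mast cell and basophil genes (median -2.17) 1 was lower, Prss34, a basophil protease (0.947 ± 0.199 to 0.0471 ± 0.0943 CPM, adjusted p = 0.00178), and without combination mouse 4, 3 were, and without control mouse 3, 2 were.

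No gene of antigen presentation or of the interferon responses passed the test. Of 15 genes of MHC class I presentation, 9 of class II, 20 of the interferon-γ response and 21 stimulated by type I interferon, 0 were called higher or lower by edgeR. At an unadjusted p under 0.05, 1 class I gene was higher, 1 gene of the type I interferon list was lower and 0 others passed, and the medians were 0.12, 0.16, 0.03 and -0.20. H2-D1, a class I heavy chain, had 2099, 2193, 3040.2 and 3084 CPM in control mice 1 to 4 and 3309, 2649, 2755 and 3442 CPM in combination mice 1 to 4 (log2 fold change 0.22 ± 0.18 SE, adjusted p = 0.502). Cd74, the invariant chain of class II, had 647, 642, 540.3 and 562 CPM in control mice 1 to 4 and 896, 389, 517 and 777 CPM in combination mice 1 to 4 (log2 fold change 0.11 ± 0.29 SE, adjusted p = 0.86), and Gbp2, a GTPase induced by interferon-γ, had 197, 207, 96.7 and 100.8 CPM in control mice 1 to 4 and 289, 84.8, 124 and 244 CPM in combination mice 1 to 4 (log2 fold change 0.30 ± 0.40 SE, adjusted p = 0.703). In both genes combination mice 1 and 4 lay above all control mice and mouse 2 below them. Oasl2, a type I interferon target, gave log2 fold change -0.09 ± 0.38 SE, adjusted p = 0.919. With DESeq2, 1 gene of the type I list was called lower and 0 of the other 3 lists. Of 17 chemokines 1 was lower (list median -0.03), Cxcl13, which attracts B cells (5.73, 6.44, 6.29 and 6.58 CPM in the control mice and 0.359, 0.0552, 0.0546 and 3.02 CPM in the combination mice, log2 -2.80, adjusted p = 0.0182), and on the cytokine list 0 of 14 were called by edgeR (1 higher and 2 lower at an unadjusted p under 0.05; DESeq2 1 and 2), with a median of -0.07 and Csf1, the macrophage growth factor, at log2 fold change -0.05 ± 0.19 SE, adjusted p = 0.906. With control pairs merged the adjusted p of Cxcl13 was 0.0791.

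**Figure D3:**
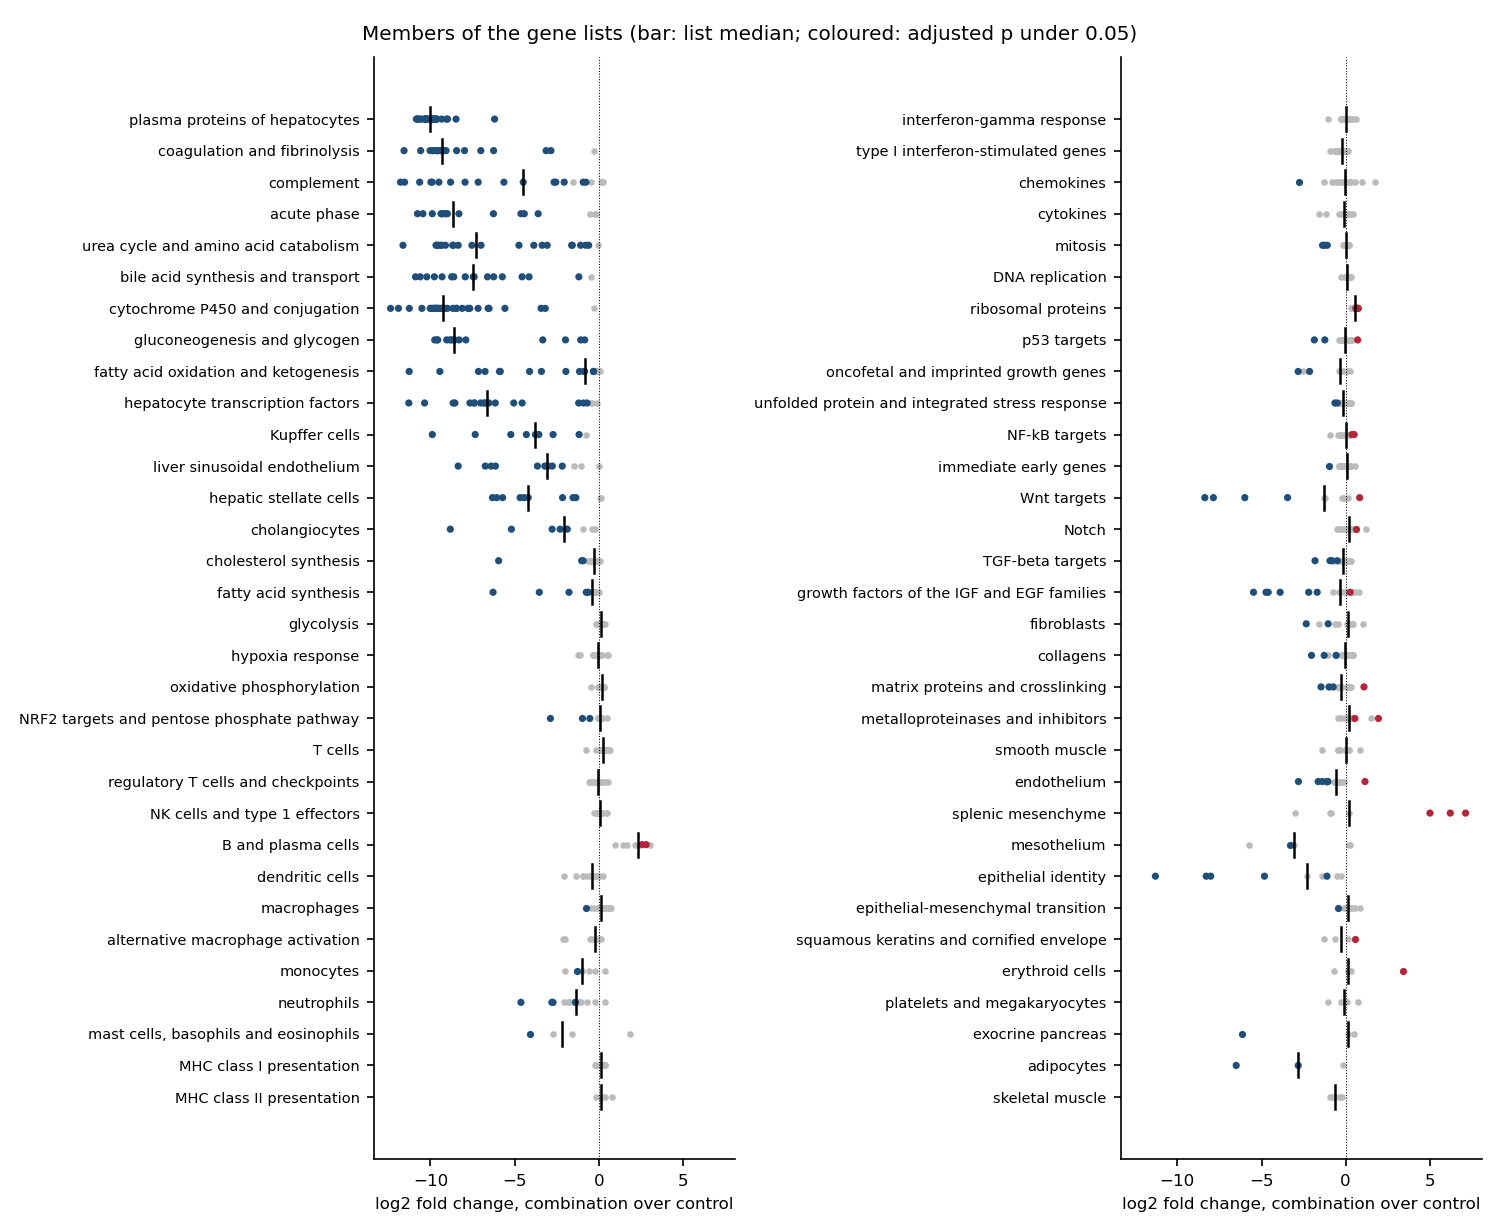
Each row is 1 of the 64 gene lists and each point a tested member at its fitted log2 fold change in the combination over the control group, blue where called lower, red where called higher and gray otherwise, with a bar at the list median. The lists of liver cells at the upper left lie far below 0. Many immune, growth and stroma lists have medians near 0, but not all. B and plasma cells lie higher (median 2.33), as do the ribosomal genes to a lesser degree (0.54). Mesothelium (-3.05), mast cells and basophils (-2.17), neutrophils (-1.38), monocytes (-0.97) and endothelium (-0.58) lie lower. Points beyond -8 include genes with few or no counts in the combination mice.

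On the list of TGF-β target genes a small set fell, namely both inhibitory SMADs, Id2 and Id3. Of 17 target genes tested 4 were lower (median log2 fold change -0.16). Id3, an inhibitor of basic helix-loop-helix factors, had 24.98, 25.7, 42.2 and 39.5 CPM in control mice 1 to 4 and 7.91, 14.5, 6.33 and 8.77 CPM in combination mice 1 to 4 (log2 fold change -1.82 ± 0.30 SE, adjusted p = 0.000207), and Smad6, an inhibitory SMAD, had 7.13, 6.77, 6.95 and 8.31 CPM in control mice 1 to 4 and 3.18, 3.09, 4.31 and 4.67 CPM in combination mice 1 to 4 (log2 fold change -0.93 ± 0.20 SE, adjusted p = 0.00259). The combination mice lay below every control mouse in both. Id2 (log2 -0.81, adjusted p = 0.0307) and Smad7 (log2 -0.49, adjusted p = 0.0484), named after their values had been seen, completed the set. Against SB525334 alone the combination did not pass the test for Id3 (adjusted p = 0.818) or Smad6 (0.664), and against KN046 alone it was lower (0.00147 and 0.00717). Leaving out 1 mouse gave 2 or 3 calls on the list, 2 without control mouse 3, control mouse 4 or combination mouse 3, and 2 were called with the control pairs merged.

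Among matrix genes single members fell and 1 rose. Of 17 collagen genes 3 were lower, with a median log2 fold change of -0.02. Col15a1 (ENSMUSG00000028339, chromosome 4 of GRCm39, 47207582 to 47313179 on the + strand), a basement membrane collagen, had 137, 146, 110.4 and 107.8 CPM in control mice 1 to 4 and 27.6, 20.1, 37.1 and 37.8 CPM in combination mice 1 to 4 (log2 fold change -2.03 ± 0.27 SE, adjusted p = 2.01e-05), a fall that left no overlap. Col1a2, a chain of type I collagen, had 1159.7, 1187, 1157 and 1152 CPM in control mice 1 to 4 and 842, 664, 929 and 709 CPM in combination mice 1 to 4 (log2 fold change -0.57 ± 0.14 SE, adjusted p = 0.0119). The third was Col12a1, a fibril-associated collagen named after its value had been seen (log2 -1.28, adjusted p = 0.036). Of 18 other matrix genes 3 were lower and 1 higher (median -0.29). Lox, the lysyl oxidase that crosslinks collagen, had 44.7, 33.7, 33.4 and 32.0 CPM in control mice 1 to 4 and 15.2, 10.9, 13.4 and 12.6 CPM in combination mice 1 to 4 (log2 fold change -1.46 ± 0.35 SE, adjusted p = 0.0083), and Eln, elastin, fell from 31.5 ± 0.518 to 18.8 ± 4.93 CPM (log2 -0.74, adjusted p = 0.00816). Postn, periostin, was the third (log2 -0.99, adjusted p = 0.0144, named after its value had been seen). Thbs2, the matrix glycoprotein thrombospondin 2, went the other way, with 8.22, 8.71, 6.34 and 6.90 CPM in control mice 1 to 4 and 15.8, 15.1, 18.1 and 15.2 CPM in combination mice 1 to 4 (log2 fold change 1.09 ± 0.17 SE, adjusted p = 8.63e-05), and no mouse of 1 group reached the other. Of 13 fibroblast genes 2 were lower (median 0.14). Lum, the proteoglycan lumican, had 25.7, 28.7, 33.8 and 35.9 CPM in control mice 1 to 4 and 2.98, 12.03, 8.41 and 1.23 CPM in combination mice 1 to 4 (log2 fold change -2.34 ± 0.44 SE, adjusted p = 0.000739) against a mean of 29.7 CPM with SB525334 and 26.5 CPM with KN046 alone, and Mgp, matrix Gla protein, fell from 11.3 ± 3.56 to 5.48 ± 0.656 CPM (log2 -1.04, adjusted p = 0.00468). Of the stellate cell genes 9 of 11 fell in the same libraries, and the part of stellate cells in these values was not tested. Without combination mouse 2 or 4 the collagen list had 1 call, and Col1a2 lost its own (adjusted p = 0.0568 and 0.0518), and with the control pairs merged the calls of Col1a2 (0.0821) and Eln (0.0571) were lost, and the collagen list and the list of other matrix genes each had 1 gene called lower.

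Matrix proteases and vessels gave both directions. Of 15 metalloproteinase and inhibitor genes 2 were higher (median 0.23). Mmp3, stromelysin 1, had 1.79, 1.37, 2.49 and 1.78 CPM in control mice 1 to 4 and 4.67, 4.36, 6.66 and 12.96 CPM in combination mice 1 to 4 (log2 fold change 1.95 ± 0.36 SE, adjusted p = 0.00077), and Mmp11, a stromal protease of carcinomas, had 44.5, 42.9, 51.6 and 56.3 CPM in control mice 1 to 4 and 73.4, 74.2, 71.3 and 66.2 CPM in combination mice 1 to 4 (log2 fold change 0.55 ± 0.11 SE, adjusted p = 0.0014). All combination mice lay above all control mice in both. Of 18 endothelial genes 6 were lower and 1 higher (median -0.58). Vwf, von Willebrand factor, fell from 11.7 ± 4.39 to 1.66 ± 0.831 CPM (log2 -2.81, adjusted p = 1.79e-05) and Eng, the TGF-β coreceptor endoglin, had 58.6, 67.6, 41.7 and 41.8 CPM in control mice 1 to 4 and 24.5, 23.4, 23.8 and 27.3 CPM in combination mice 1 to 4 (log2 -1.08, adjusted p = 0.00203). Cldn5, a tight junction protein of vessels, rose from 3.19 ± 0.479 to 7.08 ± 1.07 CPM (log2 1.15, adjusted p = 0.02). Leaving out 1 mouse gave 3 to 7 lower endothelial genes, 4 without control mouse 1 or control mouse 2 and 3 without combination mouse 3, and the call of Cldn5 was lost without control mouse 3, control mouse 4 or combination mouse 2 (adjusted p = 0.0517 to 0.0577) and with the control pairs merged (0.138). With the control pairs merged 4 endothelial genes were called lower. On the smooth muscle list 0 of 10 were called by edgeR (0 higher and 2 lower at an unadjusted p under 0.05; DESeq2 0 and 0), with a median of 0.01 and Tpm1, a tropomyosin, at log2 fold change 0.04 ± 0.13 SE, adjusted p = 0.877.

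**Figure D4:**
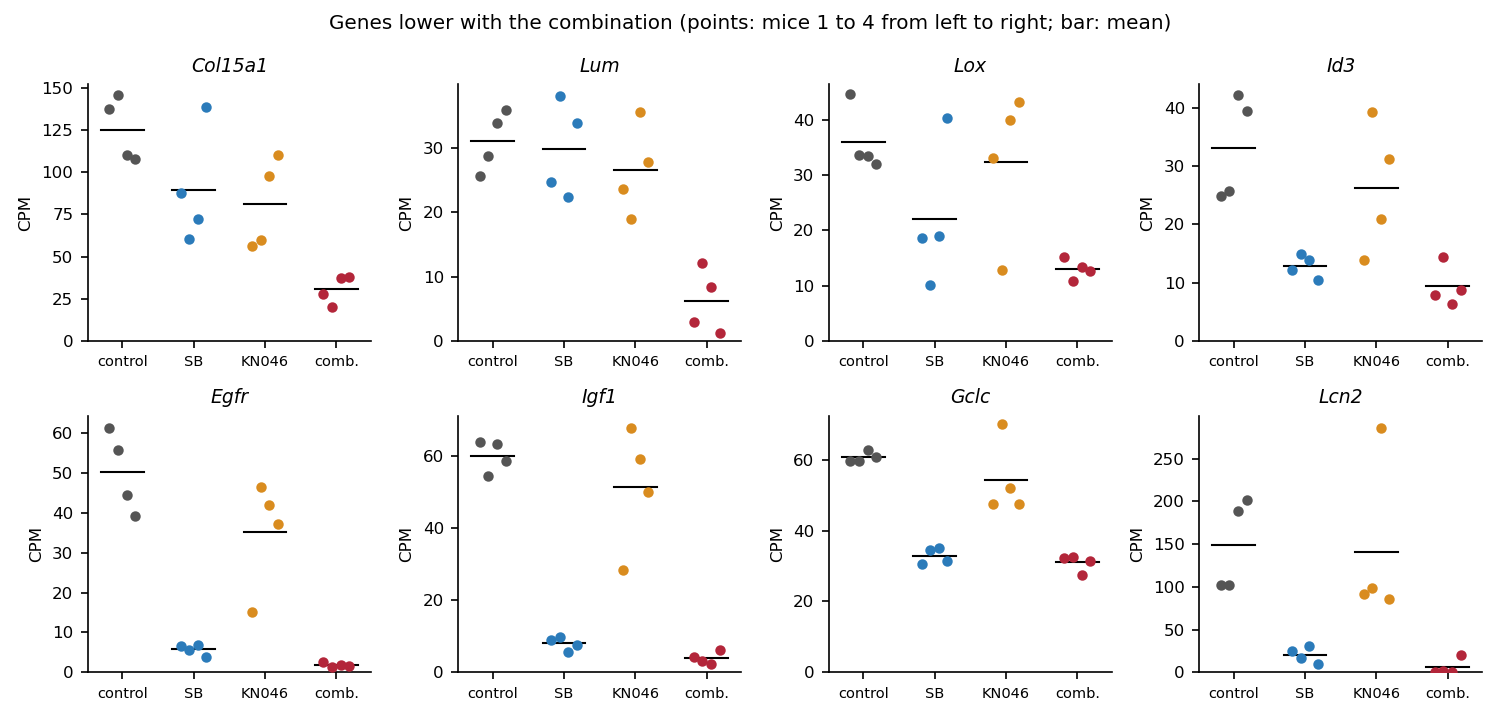
CPM of 8 genes called lower, in each of the 16 mice by group, with mice 1 to 4 from left to right and a bar at the mean. The combination mice lie below the control mice in all 8. Lum and Col15a1 are also lower than with SB525334 alone, and combination mouse 4 stands above its group in Lcn2.

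Of the growth factor and Wnt genes some fell, and Erbb2 and Apcdd1 rose. Of 16 IGF and EGF family genes 6 were lower and 1 higher (median -0.35). Egfr, the EGF receptor, had 61.2, 55.8, 44.3 and 39.2 CPM in control mice 1 to 4 and 2.72, 1.38, 1.91 and 1.51 CPM in combination mice 1 to 4 (log2 -4.73, adjusted p = 8.15e-09), and Igf1, the circulating growth factor that hepatocytes supply, had 63.9, 54.5, 63.2 and 58.6 CPM in control mice 1 to 4 and 4.21, 3.09, 2.46 and 6.27 CPM in combination mice 1 to 4 (log2 -3.89, adjusted p = 1.12e-08). Erbb2, the receptor partner of EGFR, was the 1 that was higher (58.7 ± 2.64 to 70.6 ± 3.61 CPM, log2 fold change 0.27 ± 0.08 SE, adjusted p = 0.04), a call lost without control mouse 1, 2 or 3 or combination mouse 2 or 3 (up to 0.0926) and with the control pairs merged (0.2). Of 10 Wnt target genes 4 were lower and 1 higher (median -1.26). Notum, a secreted Wnt deacylase, and Lgr5, a receptor for R-spondins, both also made by hepatocytes around the central vein, had no counts with the combination, at least 51.2-fold and at least 35.7-fold lower (adjusted p = 2.83e-06 and 0.000249). The other 2, named after their values had been seen, were Rnf43, which removes Wnt receptors (log2 -3.45, adjusted p = 0.000643), and Tnfrsf19, a receptor of the TNF family (a control to combination ratio of 78.2 with a 95% counting interval of 21.3 to 651, adjusted p = 0.00174). Apcdd1, a Wnt inhibitor, had 67.7, 76.5, 64.8 and 60.8 CPM in control mice 1 to 4 and 111, 133, 139 and 97.99 CPM in combination mice 1 to 4 (log2 fold change 0.83 ± 0.16 SE, adjusted p = 0.0008).

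Of 17 p53 target genes 1 was higher and 2 lower. Phlda3, an inhibitor of AKT, had 114, 123, 135 and 135 CPM in control mice 1 to 4 and 168, 240.2, 228 and 194 CPM in combination mice 1 to 4 (log2 fold change 0.71 ± 0.13 SE, adjusted p = 0.00059), Trp53inp1, an autophagy-linked protein, fell from 21.0 ± 3.84 to 5.75 ± 2.61 CPM (log2 -1.86, adjusted p = 0.00186), and Fas, the death receptor, from 8.01 ± 0.872 to 3.38 ± 1.003 CPM (log2 -1.24, adjusted p = 0.00282). The list's median was -0.04. Of 16 NF-κB targets (median 0.02) 2 were higher, Traf1, a signal adaptor (log2 fold change 0.50 ± 0.12 SE, adjusted p = 0.00865), and Relb, a subunit of the noncanonical pathway (log2 fold change 0.38 ± 0.11 SE, adjusted p = 0.0285). Of 12 Notch genes (median 0.21) Hes1, a repressor, was higher (log2 fold change 0.61 ± 0.19 SE, adjusted p = 0.0478), and of 18 immediate early genes (median 0.09) Zfp36, which destabilizes cytokine mRNA, was lower (log2 fold change -0.995 ± 0.20 SE, adjusted p = 0.00158). Relb lost its call without control mouse 1 or 2 or combination mouse 2 or 4 (adjusted p = 0.0546 to 0.108), and Hes1 without control mouse 1, 2 or 4 or combination mouse 2 or 3 (0.0559 to 0.221) and with the replicate number as a block (0.0546). With the control pairs merged Traf1 (0.0591), Relb (0.15) and Hes1 (0.218) did not pass. Of 22 genes of the unfolded protein response (median -0.19) 2 were lower, the chaperone gene Dnajc3 (log2 fold change -0.50 ± 0.12 SE, adjusted p = 0.00832) and Herpud1, of protein degradation at the endoplasmic reticulum (log2 fold change -0.64 ± 0.16 SE, adjusted p = 0.0112; 0.0512 without combination mouse 3).

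Of 9 epithelial genes 5 were lower (median -2.29). Krt18 had 60.3, 59.5, 116 and 108.3 CPM in control mice 1 to 4 and 0.308, 0.828, 0.109 and 0.0943 CPM in combination mice 1 to 4 (log2 -8.02, adjusted p = 1.00e-09), and its keratin partner Krt8 had 54.3, 56.8, 111 and 111 CPM in control mice 1 to 4 and 0.103, 0.883, 0 and 0.0943 CPM in combination mice 1 to 4 (log2 -8.29, adjusted p = 4.64e-09). Both keratins, which hepatocytes and bile ducts express, were under 1 CPM in every combination mouse. The other 3 lower genes were Cldn3 and, named after their values had been seen, Cldn4, another claudin (a control to combination ratio of 34.9 with a 95% counting interval of 9.33 to 294, adjusted p = 2.42e-05), and Cdh1, E-cadherin (log2 -1.11, adjusted p = 0.0101). Krt14, a basal keratin and the called gene among 4 squamous genes (median -0.25), had 239, 248, 258 and 261 CPM in control mice 1 to 4 and 273, 424, 353 and 423 CPM in combination mice 1 to 4 (log2 fold change 0.55 ± 0.15 SE, adjusted p = 0.0222), and it lost the call without control mouse 1 or 2 or combination mouse 2 or 4 (adjusted p = 0.0617 to 0.0781), with the control pairs merged (0.15) and with the length-dependent scaling (0.0553). Of 9 genes of epithelial-mesenchymal transition (median 0.13) 1 was lower, Cdh2, N-cadherin (log2 fold change -0.45 ± 0.11 SE, adjusted p = 0.0115; 0.0522 without combination mouse 4 and 0.0821 with the control pairs merged). Of 9 oncofetal and imprinted genes (median -0.31) 2 were lower, Mest, a hydrolase (log2 -2.15, adjusted p = 0.000686), and Peg3, a zinc finger protein (log2 -2.82, adjusted p = 0.0203; 0.0539 to 0.0771 without combination mouse 2, 3 or 4 and 0.0688 with the control pairs merged).

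The most abundant genes that were higher were mainly those of the ribosome. All 34 tested genes of the ribosomal protein list lay above 0 (median log2 fold change 0.54), 5 passed the test (Rpl30, Rplp2, Rps19, Rps16 and Rplp1), and the summed level was 23970 to 37760 CPM in the control mice and 31690 to 62100 CPM in the combination mice. Rps14, of the small subunit and not on the list, had 554, 599, 973 and 971 CPM in control mice 1 to 4 and 858, 1859, 1359 and 1195 CPM in combination mice 1 to 4 (log2 fold change 0.77 ± 0.23 SE, adjusted p = 0.0419). Combination mouse 1 lay below control mice 3 and 4, and combination mouse 2 was the highest of all. The other ribosomal genes among the 10 most abundant rises were Rplp2, Rps19, Rps16, Rpl34, Rpl22 and Rplp1, with log2 fold changes of 0.63, 0.71, 0.71, 0.71, 0.58 and 0.75 (adjusted p = 0.0378 to 0.0498), and Rpl30 had the smallest p of the list (log2 fold change 0.61 ± 0.16 SE, adjusted p = 0.0172). The remaining 3 were Ly6c1, a surface antigen of vessels and leukocytes, with 236, 242, 260.3 and 261 CPM in control mice 1 to 4 and 377, 329.5, 334 and 442 CPM in combination mice 1 to 4 (log2 fold change 0.57 ± 0.13 SE, adjusted p = 0.00486), Cd63, a tetraspanin of endosomes (log2 fold change 0.60 ± 0.18 SE, adjusted p = 0.0343), and Rhob, a small GTPase (log2 fold change 0.30 ± 0.09 SE, adjusted p = 0.0498). The calls of the ribosomal list moved with single libraries, from 0 without control mouse 1, control mouse 2 or combination mouse 2 and 1 without combination mouse 3 to 9 without control mouse 3, 13 without control mouse 4 and 26 without combination mouse 1, and 0 were called with the control pairs merged, where Ly6c1 had an adjusted p of 0.0543. Rps14, Rpl34 and Rpl22 also lost the call without control mouse 1 or 2 (adjusted p = 0.154 to 0.179), without combination mouse 2 (0.177 to 0.204) or 3 (0.0841 to 0.0973) and with the control pairs merged (0.169 to 0.2), as Rps14 did without combination mouse 4 (0.0508). Cd63 (0.139 and 0.133) and Rhob (0.136 and 0.148) also lost the call without control mouse 1 or 2, and with the replicate block (0.0517 and 0.0565) or the control pairs merged (0.15 and 0.251). Cd63 lost it further without combination mouse 2 (0.126) or 3 (0.0817), and Rhob without each of the other mice but combination mouse 1 (0.0593 to 0.158). In the 8 libraries alone 0 genes of the ribosomal list were called, and Rps14, Rpl34, Rpl22, Cd63 and Rhob lost the call.

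Of the proliferation genes only 3 of mitosis passed the test. Of 20 mitosis genes 3 were lower, 12 lay above 0, and the median log2 fold change was 0.02. Mki67, which encodes the Ki-67 antigen, had 524, 547, 209.6 and 192 CPM in control mice 1 to 4 and 265, 98.1, 62.2 and 143 CPM in combination mice 1 to 4 (log2 fold change -1.37 ± 0.40 SE, adjusted p = 0.0292). Its control mice fell into the 2 close pairs, and combination mouse 1 lay above control mice 3 and 4. Cenpf, a kinetochore protein, had 112, 114, 54.3 and 51.4 CPM in control mice 1 to 4 and 65.9, 28.6, 26.9 and 34.0 CPM in combination mice 1 to 4 (log2 fold change -1.09 ± 0.32 SE, adjusted p = 0.0301), with the same split, and Cenpe, a motor protein of the kinetochore named after its value had been seen, was the third (log2 -1.26, adjusted p = 0.0433). Without control mouse 1 the adjusted p was 0.109 for Mki67 and 0.115 for Cenpf, and without control mouse 2 it was 0.115 and 0.116. The list had 0 calls in those fits, without combination mouse 2, 3 or 4 (up to 0.109 for Mki67) and with the control pairs merged (0.0749). The 8 libraries alone also gave 0 calls on the list (adjusted p = 0.09985 for Mki67 and 0.0756 for Cenpf). On the DNA replication list 0 of 23 were called by edgeR (1 higher and 0 lower at an unadjusted p under 0.05; DESeq2 0 and 0), with a median of 0.11, and Mcm6, of the replicative helicase, gave log2 fold change 0.23 ± 0.11 SE, adjusted p = 0.239.

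Levels of short against long genes differed between the libraries, and 7 of 10 tested genes of the mitochondrial genome were lower. The mean log2(CPM + 1) of genes in the lowest quartile of exon length minus that of genes in the highest quartile was -1.51, -1.49, -1.25 and -1.24 in control mice 1 to 4 and -1.75, -1.40, -1.60 and -1.49 in combination mice 1 to 4, so control mice 3 and 4 stood apart from mice 1 and 2 as they did in Rps14 and Mki67. The part of this measure in those genes was not tested beyond the scaling given here. The median log2 fold change was 0.08 in the lowest quartile and -0.05 in the highest. The genes called higher numbered 79 and 18 there, and those called lower 491 and 233. With a scaling that follows exon length in each library, chosen after the data had been seen, 146 genes were called higher and 1413 lower, 6 ribosomal genes were higher, and Mki67 passed the test (adjusted p = 0.0224). Counts on genes of the mitochondrial genome made up 1.77, 1.56, 1.57 and 1.54% of all counts in the control mice and 0.892, 0.614, 0.472 and 0.948% in the combination mice, without overlap. Of these genes, looked at after their values had been seen, mt-Nd2, a subunit of complex I, fell from 970.0 ± 213 to 200.3 ± 116 CPM (log2 -2.28, adjusted p = 0.000422), mt-Cytb, of complex III, from 2236 ± 333 to 642 ± 347 CPM (log2 -1.80, adjusted p = 0.00237) and mt-Co1, of complex IV, from 10348 ± 1115 to 5688 ± 1319 CPM (log2 -0.86, adjusted p = 0.00285). The 3 that did not pass were mt-Co2 (log2 -1.03, adjusted p = 0.0585), mt-Atp6 (log2 -1.25, adjusted p = 0.0647) and mt-Co3 (log2 -0.47, adjusted p = 0.112). For mt-Nd2, mt-Cytb and mt-Co1, SB525334 alone gave means of 291, 883 and 6391 CPM. Reads of these genes and of their nuclear copies cannot be told apart, since the handling of reads with several alignments is not given in the sources used here.

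**Figure D5:**
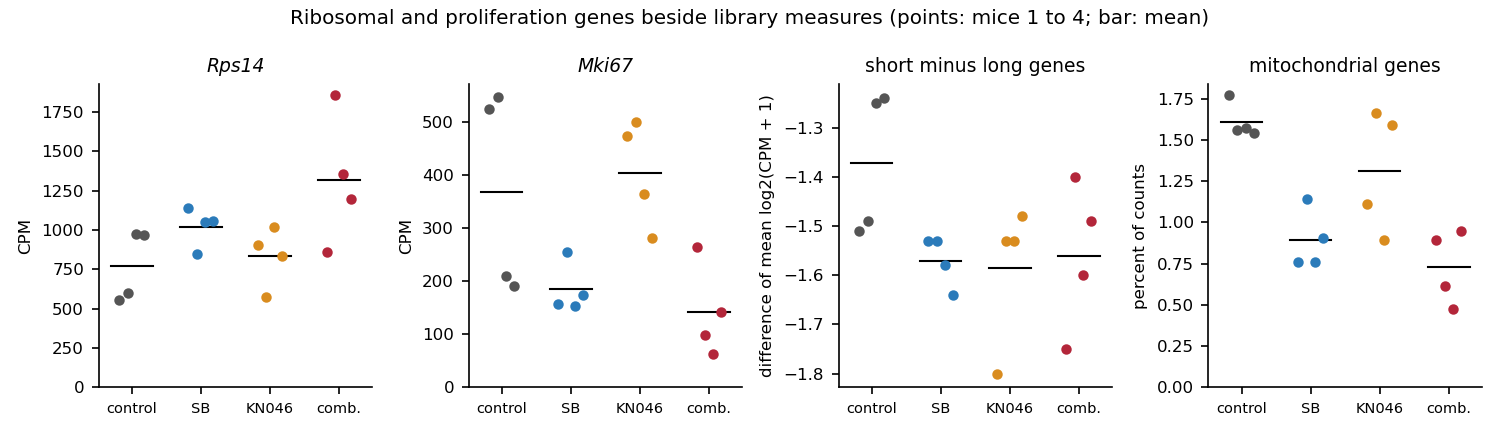
Rps14 and Mki67 in CPM, the mean log2(CPM + 1) of short minus long genes, and the percent of counts on mitochondrial genes, in each of the 16 mice by group with a bar at the mean. Control mice 1 and 2 and control mice 3 and 4 form separate pairs in the first 3 panels, and the combination mice lie below all control mice in the fourth.

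No gene of the glycolysis, hypoxia or oxidative phosphorylation lists passed the test, and lipid genes fell in part. The list of oxidative phosphorylation holds nuclear genes only, and the lower genes of the mitochondrial genome described above are not on it. On the glycolysis list 0 of 17 were called by edgeR (0 higher and 0 lower at an unadjusted p under 0.05; DESeq2 0 and 0), with a median of 0.15. On the hypoxia list 0 of 17 were called by edgeR (0 higher and 1 lower at an unadjusted p under 0.05; DESeq2 0 and 0), with a median of -0.05, and on the list of oxidative phosphorylation 0 of 31 were called by edgeR (1 higher and 1 lower at an unadjusted p under 0.05; DESeq2 0 and 0), with a median of 0.17. Eno1, an enolase, gave log2 fold change 0.26 ± 0.20 SE, adjusted p = 0.5, P4ha1, a prolyl hydroxylase, log2 fold change 0.03 ± 0.24 SE, adjusted p = 0.959, and Atp5f1b, of the ATP synthase, log2 fold change 0.16 ± 0.15 SE, adjusted p = 0.577. Lower were 14 of 23 genes of fatty acid oxidation (median -0.84), 5 of 12 of fatty acid synthesis (-0.39) and 3 of 21 of cholesterol synthesis (-0.29). Fabp1, the fatty acid binding protein of hepatocytes, had 104, 108.2, 49.4 and 53.04 CPM in control mice 1 to 4 and 0, 0, 0.0546 and 0.0471 CPM in combination mice 1 to 4 (adjusted p = 5.29e-09), and Dgat2, which makes triglycerides, fell from 40.6 ± 2.81 to 3.51 ± 0.596 CPM (log2 -3.53, adjusted p = 1.48e-09). Sc5d, a desaturase of sterol synthesis, fell from 96.1 ± 18.9 to 47.5 ± 4.94 CPM (log2 -1.01, adjusted p = 0.00669). The other fatty acid genes were Thrsp, a lipogenic regulator (adjusted p = 1.02e-05), Elovl5, an elongase (log2 -0.74, adjusted p = 2.17e-05), Gpam, of glycerolipid synthesis (log2 -0.62, adjusted p = 0.000146), and Scd1, a desaturase (log2 -1.77, adjusted p = 0.000269), of which Elovl5, Gpam and Scd1 were named after their values had been seen. Of 13 genes of NRF2 and the pentose phosphate pathway 3 were lower (median 0.08), the third being Gclm, the partner of Gclc (log2 -0.53, adjusted p = 0.0177, named after its value had been seen). With the control pairs merged 2 of the list were called lower, and Gclm lost its call. Gclc, of glutathione synthesis, had 59.6, 59.6, 62.8 and 60.7 CPM in control mice 1 to 4 and 32.2, 32.7, 27.6 and 31.5 CPM in combination mice 1 to 4 (log2 fold change -0.97 ± 0.12 SE, adjusted p = 5.86e-06), and Osgin1, an oxidative stress response gene, had 27.3, 29.5, 64.9 and 72.3 CPM in control mice 1 to 4 and 5.08, 8.33, 5.19 and 7.82 CPM in combination mice 1 to 4 (log2 fold change -2.87 ± 0.44 SE, adjusted p = 0.000106). Both sets of combination values lay below all control values.

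The remaining lists were of cells that tumor, liver edge or spleen samples could contain. Of 5 mesothelial genes (median -3.05, but 0.22 with at least 1 CPM in 4 libraries and 0.20 in the 8 libraries alone) Gpm6a, a membrane glycoprotein, was lower (0.561 ± 0.329 to 0.0482 ± 0.0667 CPM, log2 -3.32, adjusted p = 0.0182), and of 3 adipocyte genes (-2.82) 2 were, Fabp4, a fatty acid binding protein (22.4 ± 3.89 to 3.18 ± 2.04 CPM, log2 -2.82, adjusted p = 7.45e-06), and Cidec, a lipid droplet protein with no counts in the combination mice. Of 3 pancreatic genes (0.13) Cela2a, an elastase, was lower, with under 1 CPM in every control mouse and 0 counts in the combination mice. The call of Gpm6a was lost without control mouse 1 or 2 or combination mouse 2 or 3 (adjusted p up to 0.0648), that of Cela2a without any 1 mouse but control mouse 1 (up to 0.0831) and that of Cidec without combination mouse 2, 3 or 4 (up to 0.0556). With the control pairs merged all 3 were lost (0.0504, 0.0797 and 0.0618). Of 6 erythroid genes 1 was higher, Slc4a1 (median 0.17, and -0.27 without combination mouse 4). On the platelet list 0 of 4 were called by edgeR (1 higher and 0 lower at an unadjusted p under 0.05; DESeq2 0 and 0), with a median of -0.11 and Pf4, platelet factor 4, at log2 fold change 0.72 ± 0.34 SE, adjusted p = 0.225, and on the skeletal muscle list 0 of 7 were called by edgeR (0 higher and 1 lower at an unadjusted p under 0.05; DESeq2 0 and 0), with a median of -0.61 and Myh4, a fast myosin, at log2 fold change -0.91 ± 0.34 SE, adjusted p = 0.111; without control mouse 2 Myh4 was called lower (adjusted p = 0.00785).

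Set beside the single agents, the combination differed from KN046 alone in more genes than from SB525334 alone. Against SB525334 76 genes were higher (0.544% of those tested) and 423 lower (3.03%), and against KN046 1381 were higher (9.89%) and 2025 lower (14.5%), in the same edgeR fit. These comparisons share the combination mice with those above, so they are not independent of them. The rises of Nr5a1 (adjusted p = 1.52e-05 against SB525334 and 3.88e-06 against KN046), Nts (0.000352 and 8.96e-05), Mmp3 (8.33e-05 and 0.000231), Thbs2 (0.00202 and 0.00022) and Cldn5 (0.0015 and 0.00665) were past the threshold against each single agent. Phlda3 had means of 191 CPM with SB525334 alone, 111 CPM with KN046 alone and 208 CPM with the combination (adjusted p = 0.949 and 5.05e-05). Krt14 (0.976 and 0.00072), Gclc (0.968 and 5.22e-05) and Osgin1 (0.968 and 0.0193) likewise passed against KN046 and not against SB525334. Alb averaged 535 CPM with SB525334, 8342 CPM with KN046 and 9.52 CPM with the combination, with an adjusted p of 2.71e-07 and 5.42e-10. Ltf, a neutrophil granule protein named after its values had been seen, had 1.90, 1.16, 0.109 and 27.5 CPM in the combination mice against means of 32.2, 0.128 and 0.46 CPM in the control, SB525334 and KN046 groups, and of the combination mice only number 4 came near the control mean.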

How the data were processed

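RNA-seq of tumor tissue from 16 mice, 4 per group, was analysed, and the 4 combination and 4 control mice were compared. The authors deposited 1 table per mouse of raw read counts per Ensembl gene and 1 of normalized values. Per the submitters' processing notes, Cutadapt 2.7, HISAT2 2.2.1 and HTSeq 2.0.4 made the counts on GRCm39 (Ensembl release 108 in the methods), and DESeq2 1.38.3 was used afterwards. Strand and multi-mapping settings are not given in the sources used here, so values of near-identical genes (the ribosomal proteins with their pseudogenes, Ugt2b5, Cyp2c54, the Serpina and hemoglobin genes) are uncertain where reads are shared. The normalized tables were not used here.

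The raw counts of all 16 mice entered 1 edgeR 4.0.16 quasi-likelihood fit (R 4.3.3) with TMM scaling and filterByExpr at a minimum count of 10, which left 13968 of 21959 genes. The contrast was combination minus control, and called means a Benjamini-Hochberg adjusted p under 0.05 over all genes tested. All p-values are from this fit unless another tool is named. Symbols and coordinates came from GENCODE M39, which held 21770 of the identifiers. Groups came from the labels. The replicate numbers did not pair the mice: the correlations of deviations between same-numbered control and combination mice were 0.407, -0.37, 0.178 and -0.131.

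The comparison, the 64 gene lists and the promoters shown were chosen with earlier results of these data known. The genes named are the 12 largest rises and 12 largest falls among called genes that averaged at least 1 CPM in the higher group and did not overlap between groups, the 10 most abundant called rises, and in each list the 2 called members of smallest p in each direction or, where none was called, the most abundant member. The granzymes and 28 genes that the study displays were left out of that rule. Alb and Hpx stand for their promoters, and C1qa, C1qb, C1qc, S100a9, Ngp, Ltf and the mitochondrial genes were added after their values were seen; other additions are marked in the text. Trac, Trbc1, Trbc2, Ighm, Igkc, H19 and Ahsp were not analysed here. A gene with 0 counts over a group is given as a bound against 3 counts over that group, and one with 1 to 3 counts as a ratio with an exact counting interval of 95%.

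Alternatives were DESeq2's size factors, a scaling without the liver lists, no filter on low counts, at least 1 CPM in 4 libraries, DESeq2 1.42.0, the study's thresholds (p under 0.05 and a fold over 2), the 8 libraries alone, the replicate block, merged control pairs and each mouse left out in turn. Scaling by exon length was added after seeing the data. The values of some list members are not reported here, though the list counts include them.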

Additional observations from a re-analysis of the deposited data

Results flagged for a closer look

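In 22 of 270 groups of 4 mice, taken over the genes named by rule, 1 mouse lay apart from the other 3 by Dixon's 95% limit. For continuous, normally distributed values chance flags about 1 in 20 such groups, which is 13.5 here. Several flagged groups, such as those of Nr5a1 and Hnf4a, had 0 CPM in the other 3 mice, where any count passes the limit. The 22 can therefore not be compared with 13.5.

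Combination mouse 4 was apart in 6 of them. It had 20.65 CPM of Lcn2, a neutrophil gene, against 0.328 to 1.66 CPM in the other combination mice, and 3.017 CPM of Cxcl13, a B cell chemokine, against 0.0546 to 0.359 CPM. It was also the highest in the basophil protease Prss34 (0.1885 CPM), the retinal dehydrogenase Aldh1a1 (0.707 CPM), the peroxisomal thiolase Acaa1b (0.04714 CPM) and Reln of stellate cells (0.5185 CPM).

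Control mouse 1 was the highest of its group in Lox (44.66 CPM), Nr5a1 (0.1312 CPM), Tlx1 (0.1312 CPM) and Nkx2-3 (0.2624 CPM), the last 3 being genes of spleen with no counts in the other control mice. It was apart as well in Trp53inp1 (26.68 CPM) and was the lowest in the elastase Cela2a (0.08748 CPM). Control mouse 4 was apart in Cdh2 (68.72 CPM).

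Most of the remaining groups were of genes near 0 with the combination. Mouse 1 was apart in C4bp (0.1027 CPM), Akr1d1 of bile acid synthesis (0.05135 CPM) and Thrsp (0.3594 CPM), mouse 2 in Crp (0.05518 CPM), Gata4 of sinusoidal endothelium (0.05518 CPM) and Krt8 (0.8829 CPM), and mouse 3 in Kng2 (0.05459 CPM) and Hnf4a (0.1092 CPM). Mest stood at 2.948 CPM in combination mouse 3, against 2.215 to 2.262 CPM in the others.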

How the results depend on the processing

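The number of genes called higher (192) depended on the processing, and the number called lower (1360) stayed between 1157 and 1516. Higher genes numbered 359 with DESeq2, 76 at the study's thresholds, 35 with the control pairs merged and 79 to 668 when 1 mouse was left out, against 202 with DESeq2's size factors, 230 with a scaling without the liver lists, 173 without a filter on low counts, 223 with at least 1 CPM in 4 libraries, 189 in the 8 libraries alone and 146 with the length-dependent scaling. Of the 189 in the 8 libraries alone, 118 were among the 192 main calls. Of the 1335 genes called lower there, 1228 were among the 1360. With the replicate block 167 genes were higher and 1365 lower, of which 145 and 1317 were among the main calls, and 9 of the 118 called genes that met the naming rule lost the call; the replicate numbers did not pair the mice. In the 8 libraries alone 22 of these 118 named genes lost the call. They include the named ribosomal, B cell and mitosis genes, Cd63 and Rhob. The others were Pla2g2d, Mertk, Plac8, Cxcl13, Herpud1, Hes1, Erbb2 and Slc4a1 (adjusted p = 0.0524 to 0.102). Leaving out 1 mouse, 87 of the 118 named genes kept direction and call in every fit. Over the other alternatives 75 did, and 0 of them changed sign in any. Sign changes were seen in genes that were not called, the cause of which was not tested: P4ha1 gave -0.034 to 0.095 over the fits leaving out 1 mouse, Entpd1 -0.115 to 0.166 (-0.0012 with length-dependent scaling), Arg1 -0.324 to 0.129, Cd74 -0.066 to 0.299, Oasl2 -0.352 to 0.103, Csf1 -0.115 to 0.019 and Tpm1 -0.043 to 0.132. Depth limits genes under about 3 counts in a group, 116 of the lower genes having 0 and 192 having 1 to 3 counts in the 4 combination mice.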
